A study of Mus musculus with 4 samples.

Results

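J774 cells, a mouse monocyte-macrophage line, were compared between epoxomicin, an irreversible epoxyketone inhibitor of the proteasome, and MG132, a peptide aldehyde inhibitor. The comparison takes the array titled EPOX-4 against the array titled MG132-3, which are 2 of the 4 arrays in the series, and it leaves the solvent array out of every difference. Each inhibitor was used at 1 μM for 4 hours, with DMSO as the solvent, and the remaining arrays hold cells with DMSO alone and cells with ONX0914, an inhibitor of the β5 and β5i subunits. The treatment label of the last array names ONX-0912, whereas its treatment protocol and the paper name ONX0914. Its signals and those of the DMSO array are given only beside the comparison. All 4 arrays came from 1 cell line and lay on 1 slide that was scanned once, with 1 array per condition. A human array design is named in the methods, whereas the file headers name a mouse one.

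The proteasome degrades ubiquitin-tagged proteins, and its chymotrypsin-like activity sits on the β5 subunit, which immune cells can replace with β5i, encoded by *Psmb8*. Epoxomicin binds the catalytic threonine of the proteasome covalently. MG132 binds reversibly and, as a peptide aldehyde, is also known to inhibit calpains and cathepsins. Cells in which protein degradation is blocked are known to induce heat-shock chaperones through Hsf1, proteasome subunits through Nfe2l1, and stress genes through Atf4 and Nrf2.

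A difference is the log2 level with epoxomicin minus the log2 level with MG132. Before the subtraction, the 75th percentile of each array, a processed signal of 1448 with MG132 and of 1669 with epoxomicin, was removed. Signals printed below are the scanner's own, so a gene of equal level has a somewhat higher signal on the epoxomicin array. Of 20144 genes with a named probe, 13637 were well above background on at least 1 of both arrays and were compared. Of these, 13043 were measured on both. For the other 594, of which 341 were well above background only with epoxomicin and 253 only with MG132, the difference is a bound, written as “at least.” The share of spots well above background was 60.7% with MG132 and 60.9% with epoxomicin, and no spot was saturated. Only 1 pair of cultures was compared, so no difference has a replicate check, and no P value is given. Of 9 macrophage markers, 8 had a probe and all 8 were measured, with *Csf1r*, the receptor for colony-stimulating factor 1, at a signal of 165950 with MG132 and 193542 with epoxomicin. Among the markers of other cell types, *Lck* (3435 and 4468), *Cd4* (3679 and 3915), *Elane* (2003 and 2318) and *Kdr* (6430 and 5275) had a signal of at least 1000 on both arrays, MG132 first. For *Cd4* and *Kdr* this holds for the brightest probe only. Another probe of each, printed 10 times, was faint, with 23.8 for *Cd4* and 42.9 for *Kdr* as the lower of both signals. Of 5 epithelial markers, *Epcam* and *Cdh1* were not well above background on either array, and 3 were compared, as described below. Of 5 fibroblast markers, *Col1a1*, *Col3a1* and *Dcn* were not well above background, while *Col1a2* and *Pdgfra* were compared. The summed signal of the 5 fibroblast markers was 116 with MG132 and 128 with epoxomicin.

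Epoxomicin and MG132 left the J774 cells with nearly the same transcript levels. The median difference was 0.01 and the middle of the distribution lay between −0.11 and 0.12. The levels on both arrays had a Pearson correlation of 0.997 across genes, and genes are not independent of each other. Of the genes compared, 95.6% lay within 1.5-fold and 98.5% within 2-fold. At least 2-fold higher with epoxomicin were 111 genes (0.814% of those compared), of which 43 were measured and 68 were bounds. At least 2-fold lower were 96 genes (0.704%), with 41 measured and 55 bounds. With normexp, a model-based background correction in place of the scanner software's, 7 genes were at least 2-fold higher and 22 lower, and the share of higher ones among them was 24.1%, beside 53.6% as reported. Among the 13043 genes measured on both arrays, 0.33% were at least 2-fold higher and 0.314% lower, 1.53% and 1.21% were past 1.5-fold, and 51.3% were above 0 and 48.7% below. At 1.5-fold, 330 genes (2.42%) were higher and 268 (1.97%) lower. Just past the 2-fold limit lay *Baiap2l1* and *Pabpc2*, both bounds at 1.00, and *Dus4l* (−1.001) and *Lcn3*, a bound (−1.01). Just short of it lay *B3gnt8* and *Slamf1*, a bound (0.997 and 0.996), and *Ube2s* and *Aspdh*, a bound (−0.996 and −0.994).

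Most of the genes past 2-fold were faint. Where the lower of both signals was under 200, the SD of the difference over 3133 genes was 0.34, and 1.92% of the genes were past 2-fold. Between 200 and 1000, the SD over 2727 genes was 0.24 and the share was 0.477%. With a signal of at least 1000 on both arrays, the SD over 7183 genes was 0.18, and the share was 0.153%. The spots of a single RNA differed in the same order. For probes printed 10 times, the SD of the difference between spots had a median of 0.13 under 200 (58 probes), 0.05 between 200 and 1000 (48 probes) and 0.03 above (150 probes). That spread covers printing and reading of one RNA and says nothing of the spread between cultures. Among the 7183 bright genes, 1 gene (0.0139%) was at least 2-fold higher with epoxomicin and 10 (0.139%) were at least 2-fold lower. At 1.5-fold, 36 bright genes (0.501%) were higher and 39 (0.543%) lower, and 54% of the bright genes were above 0 and 46% below. The median difference also moved with the signal. It was 0.02 for genes between 1000 and 10000, 0.00 for genes between 10000 and 100000, and −0.09 for the 203 genes of 100000 or more, of which 22.2% were above 0.

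**Figure D1:**
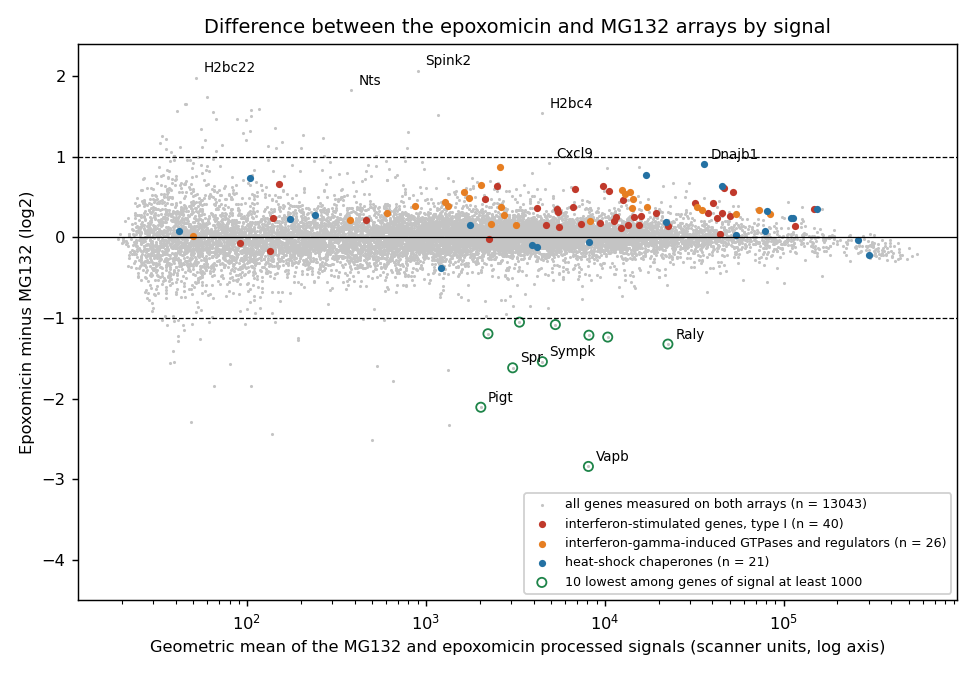
Difference between epoxomicin and MG132 (log2, y axis) against the geometric mean of both processed signals (scanner units, log axis), with 1 point per gene measured on both arrays (n = 13043). Colored points are members of 3 gene lists, green circles are the 10 lowest genes among those with a signal of at least 1000, and dashed lines mark 2-fold. Most genes past the dashed lines are faint, interferon genes lie above 0, and the circled bright genes lie below −1.

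The bright gene that was furthest above MG132 with epoxomicin was *H2bc4*, which encodes a core histone H2B. Its signal was 2447 with MG132 and 8185 with epoxomicin, beside 2653 with DMSO and 1762 with ONX0914. Epoxomicin alone stood apart, by 1.54 (2.90-fold) from MG132. *Cxcl9*, a ligand of the receptor CXCR3, had a signal of 3294 with MG132 and 7176 with epoxomicin. With ONX0914 it was 1849, and with DMSO it was not well above background (7.89). The difference was 0.92 (1.89-fold), and the gene's other probe gave 0.85. *Dnajb1*, an Hsp40 cochaperone, had signals of 24360 with MG132 and 52659 with epoxomicin, a difference of 0.91 (1.88-fold). Both other arrays were lower, at 16388 with DMSO and 15432 with ONX0914. *Bag3*, a cochaperone of Hsp70 that acts in chaperone-assisted autophagy, differed by 0.78, from 12091 with MG132 to 23869 with epoxomicin. The DMSO and ONX0914 arrays stood below both, at 3064 and 6778.

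The next of these genes act in polyamine breakdown, matrix turnover, signaling and cell death. *Sat1*, which acetylates spermidine and spermine, had a signal of 10767 with MG132 and 22735 with epoxomicin (0.87). *Mmp13*, a collagenase, had 7117 and 14959 (0.87), and *Gm4841*, a member of the interferon-inducible GTPases, had 1779 and 3750 (0.87). *Arc*, an immediate early gene known from neurons, had 2765 with MG132 and 5542 with epoxomicin (0.80), beside 1005 with DMSO and 1115 with ONX0914. *Bcl2l11* encodes Bim, a proapoptotic BH3-only protein. It had signals of 1304 with MG132 and 2499 with epoxomicin, a difference of 0.73, and was far lower with DMSO (217) and ONX0914 (285). *Fbxo17*, an F-box protein that selects substrates for a ubiquitin ligase, differed by 0.70 (1673 and 3141). In each of these 10 genes, epoxomicin had the highest scaled signal of the 4 arrays and MG132 the second highest. Of the 36 bright genes at least 1.5-fold higher, epoxomicin was the highest of the 4 arrays in 35 and MG132 second in 33. Among all 7177 bright genes measured on the 4 arrays, epoxomicin was the highest in 28.4% and MG132 the second highest in 2187. A gene chosen for a high epoxomicin signal is more likely to have epoxomicin as its highest array.

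The bright genes that were lower with epoxomicin had larger differences and other functions. *Vapb*, a membrane protein of the endoplasmic reticulum that tethers it to other organelles, had a signal of 20221 with MG132 and 3251 with epoxomicin, beside 26573 with DMSO and 9370 with ONX0914. It was 7.17-fold lower with epoxomicin than with MG132 (−2.84), while its other probe differed by 0.03 and the mean over both probes by −1.41. *Pigt*, a subunit of the transamidase that attaches GPI anchors to proteins, had signals of 3925 with MG132 and 1050 with epoxomicin (−2.11), beside 7595 with DMSO and 2987 with ONX0914. *Spr*, sepiapterin reductase of the tetrahydrobiopterin pathway, had 4992, 1874, 6671 and 3835 in the same order (−1.62). For all 3 genes the epoxomicin signal was the lowest and the ONX0914 signal the next.

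*Sympk* (7126 with MG132 and 2821 with epoxomicin, −1.54), a scaffold of the machinery that processes pre-mRNA ends, and *Raly* (33240 and 15305, −1.32), an RNA-binding protein, were followed by genes of the endosome and lysosome. *Psap*, the precursor of the lysosomal saposins, had 14863 with MG132 and 7269 with epoxomicin (−1.24), beside 17300 with DMSO and 15440 with ONX0914, so that the epoxomicin array alone was low. *Rab5c*, a GTPase of early endosomes, had 11574 with MG132 and 5753 with epoxomicin (−1.21). The last of these were *Clstn3*, a calsyntenin (−1.20), *Gatd3a*, a mitochondrial protein (7182 and 3910, −1.08), and *Arl6ip5*, a membrane protein of the endoplasmic reticulum (−1.05). The epoxomicin array had the lowest scaled signal of the 4 arrays in all 10 genes, and the ONX0914 array the second lowest in 9. Of the 39 bright genes at least 1.5-fold lower, epoxomicin was the lowest in 38 and ONX0914 the second lowest in 25. Among all 7177 bright genes measured on the 4 arrays, epoxomicin was the lowest in 28.1% and ONX0914 the second lowest in 2312. The choice of the genes favors a low epoxomicin array.

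**Figure D2:**
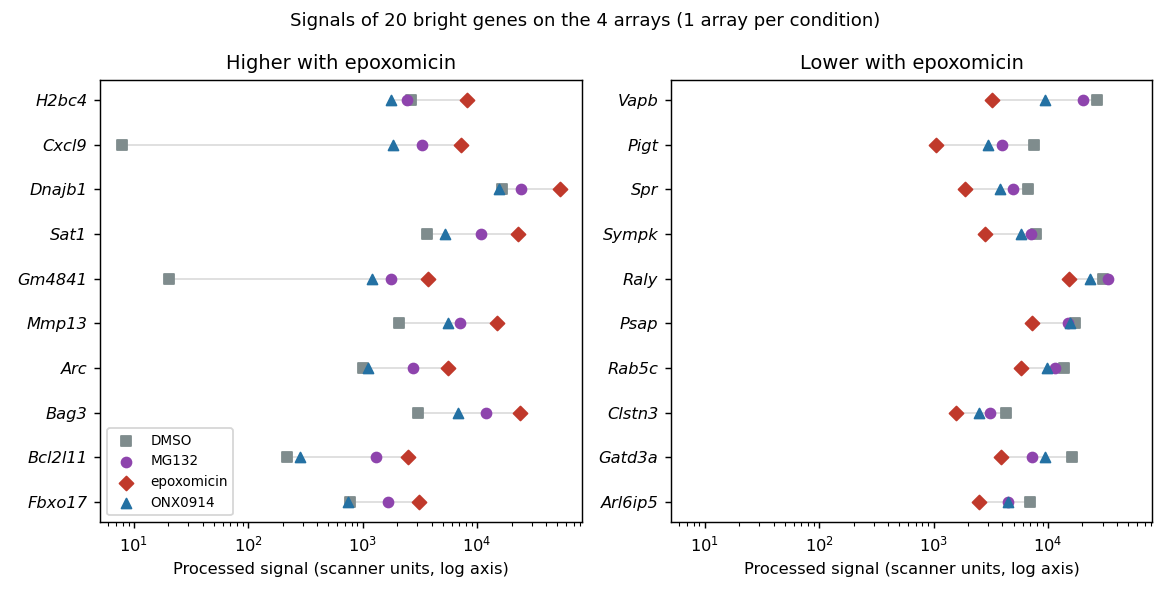
Processed signal (scanner units, log axis) of 20 genes with a signal of at least 1000 on the MG132 and epoxomicin arrays, with 1 symbol per array and 1 array per condition. On the left are the 10 genes with the largest difference between epoxomicin and MG132 and on the right the 10 with the smallest. The epoxomicin symbol is the rightmost in every row on the left and the leftmost in every row on the right.

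Where a gene at least 1.5-fold apart had a second probe, higher genes were matched more often than lower ones. Of the genes at least 1.5-fold higher, 25 had 27 other probes well above background on both arrays. Of these probes, 25 were above 0 and 15 were at least 1.5-fold, with a median of 0.61, beside 0.67 for the probes that stood for the genes. Of the genes at least 1.5-fold lower, 21 had 22 other probes. Of those, 18 were below 0 and 3 were at least 1.5-fold, with a median of −0.17, beside −0.67. Among genes with a signal of at least 1000 on both arrays, the sides were closer. There, 7 of 12 other probes of higher genes were at least 1.5-fold, and 3 of 7 of lower genes. At 2-fold the match was poor on both sides. The 4 higher genes had 4 other probes, of which 2 were above 0 and 2 below. The 3 lower genes had 3 other probes, of which 1 was below 0 and 2 above. *Isg15* (0.62 and 0.71), *Hsph1* (0.64 and 0.72) and *Iigp1* (0.59 and 0.61) had nearly equal differences with both probes. So did *Gatd3a* (−1.08 and −1.02), *Ass1*, argininosuccinate synthase (−0.85 and −1.08), and *Copg2*, a coatomer subunit (−0.73 and −0.93), among the lower genes. *Vapb* did not, since its other probe had a signal of 725 with MG132 and 851 with epoxomicin, a difference of 0.03. Neither did *Gsk3b*, glycogen synthase kinase 3β (−0.87, with −0.17 and 0.10 for its other probes). Different probes of a gene can read different transcripts, and why they differed was not tested. The other bright genes named as lower, *Pigt*, *Spr*, *Sympk*, *Raly*, *Psap*, *Rab5c*, *Clstn3* and *Arl6ip5*, had 1 probe each, printed once.

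**Figure D3:**
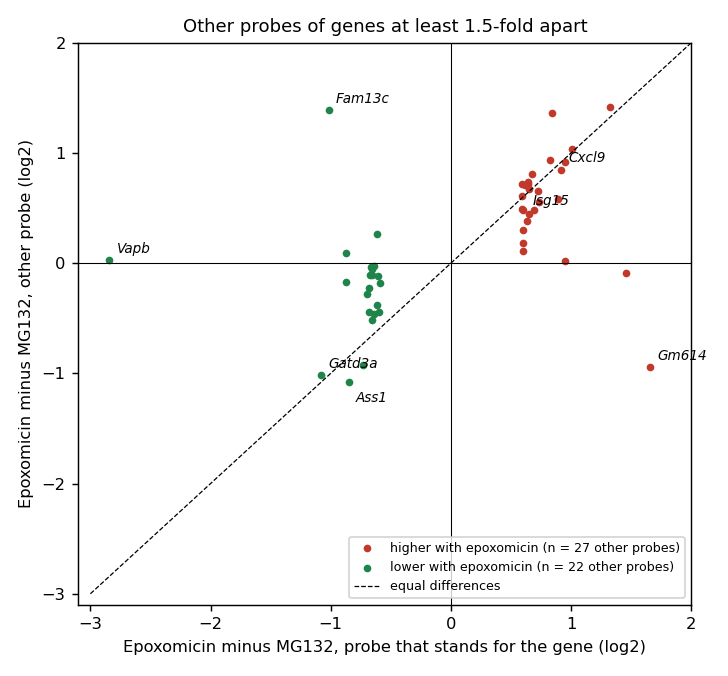
Difference between epoxomicin and MG132 (log2) of the other probes of a gene (y axis) against that of the probe that stands for it (x axis), for genes at least 1.5-fold apart. Red points are 27 other probes of genes that were higher with epoxomicin, green points are 22 of genes that were lower, and the dashed line marks equal differences. Most red points lie near the dashed line, but those of *Gm614* and *Arntl2* lie below 0. Most green points lie closer to 0 than the line.

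Interferon-stimulated genes were higher with epoxomicin as a group, each by a small amount. Such genes are switched on when interferons bind their receptors on the cell surface. Of 46 listed for type I interferon, 40 were compared. Their median difference was 0.27, beside 0.01 over all genes, 37 were above 0 and 3 below, and all genes compared were above 0 in 51.6%. At least 1.5-fold higher were 5 of the 40 (2.42% over all genes), and none was 1.5-fold lower. *Isg15*, a ubiquitin-like modifier, had a signal of 34776 with MG132 and 61539 with epoxomicin (0.62), beside 3996 with DMSO and 20370 with ONX0914. *Ifit1*, which binds foreign RNA, had 5186, 9047, 541 and 5851 in the same order (0.60). *Ifit3b*, of the same family, had 1864, 3344, 68.4 and 1169 (0.64). Epoxomicin gave the highest signal of each. *Ifit2* (0.64) and the faint *Ifit1bl1* (112 with MG132 and 204 with epoxomicin, 0.66) completed the 5 genes. Members just below 0 included *Slfn1* (−0.07) and *Oas3* (−0.02).

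Upstream sequence is shown for 4 of these 5 genes, without *Ifit2*, whose window was searched and held no match, because the interferon-stimulated response element, through which type I interferon acts on its targets, is defined by its letters. The search used GAAA, any 2 bases and GAAA again, on both strands, with overlapping matches counted separately, in windows from 250 bases before to 50 after each RefSeq gene start. It found the letters in 3.99% of 27025 genes. They were in 16 of the 31 compared interferon-stimulated genes that had a promoter entry. The 200 bases before the start are printed from RefSeq (GRCm38.p6), 5′ to 3′ on the strand of the gene, with matches in capitals.
Isg15 (chr4:156200819-156201018, minus strand): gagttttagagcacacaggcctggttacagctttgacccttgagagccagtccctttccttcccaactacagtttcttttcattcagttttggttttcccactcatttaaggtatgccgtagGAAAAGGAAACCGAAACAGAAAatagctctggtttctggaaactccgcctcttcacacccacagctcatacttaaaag
Ifit1 (chr19:34640689-34640888, plus strand): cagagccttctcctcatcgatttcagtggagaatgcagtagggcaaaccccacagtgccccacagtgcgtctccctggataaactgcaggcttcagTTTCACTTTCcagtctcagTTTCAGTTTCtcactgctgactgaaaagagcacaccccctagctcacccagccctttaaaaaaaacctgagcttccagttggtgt
Ifit3b (chr19:34607757-34607956, plus strand): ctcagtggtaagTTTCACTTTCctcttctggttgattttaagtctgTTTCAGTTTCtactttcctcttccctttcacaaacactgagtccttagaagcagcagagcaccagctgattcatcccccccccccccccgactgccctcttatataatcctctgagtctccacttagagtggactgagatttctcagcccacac
Ifit1bl1 (chr19:34601969-34602168, minus strand): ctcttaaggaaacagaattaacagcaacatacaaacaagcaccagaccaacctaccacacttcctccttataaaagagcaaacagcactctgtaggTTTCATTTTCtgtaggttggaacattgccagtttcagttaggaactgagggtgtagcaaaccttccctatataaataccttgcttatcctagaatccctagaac
*Isg15* held 3 overlapping matches, *Ifit1* and *Ifit3b* 2 each, and *Ifit1bl1* 1. The 16 genes with it had a median difference of 0.31 and the 15 without it 0.30. A match describes these letters only and is not a measured binding site.

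Genes induced by interferon-γ, chiefly GTPases that act against intracellular microbes, were all on the same side. Of 27 listed, 26 were compared, and all 26 were above 0 (51.6% over all genes), with a median of 0.37. At least 1.5-fold higher were 3 of the 26 (2.42% over all genes), namely *Gm4841*, *F830016B08Rik* (1501 with MG132 and 2726 with epoxomicin, 0.66) and *Iigp1* (9528 and 16503, 0.59). The guanylate-binding proteins ranged from 0.16 for *Gbp4* to 0.56 for *Gbp9*. The regulators *Irf1* and *Irf8* differed by 0.29 and 0.35. *Igtp*, whose probe was printed 10 times, differed by 0.32 ± 0.06 (SD over the 8 spots kept on both arrays, 1 RNA per array). Both lists kept their direction under every scaling tried. Of the interferon genes on the lists, *Ifng* was not well above background on either array. *Ifnb1* had signals of 84.1 with epoxomicin and 71.3 with DMSO, and was not well above background with MG132 (15.1) or ONX0914 (8.08). Its difference, at least 4.10-fold, is between faint spots and came to 0.46 on the log2 scale with normexp.

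Chemokine genes as a group lay near 0 and cytokine genes above it. Of 12 chemokine genes compared, 8 were above 0 and 4 below, with a median of 0.04, and *Cxcl9* alone was past 1.5-fold. *Cxcl10*, another CXCR3 ligand, had a signal of 104018 with MG132 and 155605 with epoxomicin (0.38), among genes of 100000 or more that had a median of −0.09. *Cxcr3* differed by 0.13. *Cxcl2*, which attracts neutrophils, was the lowest chemokine, at 7711 and 6613 (−0.43). Of 15 cytokine genes, 11 were above 0 (51.6% over all genes), with a median of 0.25, and 4 were at least 1.5-fold higher (2.42% over all genes). *Il10*, an anti-inflammatory cytokine, differed by 1.27 ± 0.13 (SD over 10 spots) and all spots lay between 1.07 and 1.46. Its signal was 124 with MG132 and 342 with epoxomicin, beside 13.2 with DMSO (not well above background) and 25.7 with ONX0914. *Il1b* differed by 0.65 ± 0.04 (SD over 10 spots), from 558 with MG132 to 1008 with epoxomicin, with both other arrays lower at 237 and 222. *Il1rn*, the interleukin-1 receptor antagonist, differed by 0.59 (204 and 355). *Tnf* went the other way, at −0.25 ± 0.03 (SD over 10 spots). *Il6* differed by 0.07.

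Heat-shock genes and immediate early genes also had medians above 0. Of 21 heat-shock genes, 15 were above 0 (51.6% over all genes) and 6 below, with a median of 0.20. At least 1.5-fold higher were 4 (2.42% over all genes). Besides *Dnajb1* and *Bag3*, these were *Hsph1*, an Hsp110 cochaperone (33860 with MG132 and 60860 with epoxomicin, 0.64), and *Hspb1*, a small heat-shock protein (75.2 and 144, 0.74). *Hsp90aa1*, the inducible Hsp90, differed by 0.36. *Hspa8*, the constitutive Hsp70, differed by −0.22, and *Hsf2*, a heat-shock transcription factor, by −0.38. The heat-shock element GAANNTTC, searched on both strands in the same windows, was in 9.04% of all genes and in 9 of 16 heat-shock genes with a promoter entry. The 9 genes had a median difference of 0.24 and the 7 without it 0.08. *Dnajb1*, the highest of the list, was among the 7. *Hspb1* is shown because it had 2 matches within the 200 bases before its start, printed as above with the matches in capitals.
Hspb1 (chr5:135887719-135887918, plus strand): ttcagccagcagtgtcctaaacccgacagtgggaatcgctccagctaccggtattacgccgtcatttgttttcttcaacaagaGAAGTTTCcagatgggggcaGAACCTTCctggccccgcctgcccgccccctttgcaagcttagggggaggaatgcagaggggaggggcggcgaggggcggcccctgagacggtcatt
*Hspa1a*, *Hsph1*, *Dnaja1*, *Hspe1*, *Hspd1*, *Bag3*, *Chordc1* and *Fkbp4* held the letters as well, within their windows.

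Immediate early genes are transcribed within minutes of a stimulus. Of 20 compared, 17 were above 0 (51.6% over all genes), with a median of 0.25. At least 1.5-fold higher were 4, beside 2.42% over all genes. *Myc* had a signal of 197 with MG132 and 436 with epoxomicin (0.94), beside 785 with DMSO and 248 with ONX0914, so that it was below DMSO with both inhibitors and lowest with MG132. *Nr4a1*, an orphan nuclear receptor, had 642, 1411, 426 and 246 in the same order (0.93). *Fos* differed by 0.68 ± 0.03 (SD over 10 spots; 287 with MG132 and 531 with epoxomicin). *Maff*, a small Maf transcription factor, differed by 0.61. *Jun* differed by 0.31 (41558 and 59572).

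The other stress programs had medians slightly below 0. Over all genes compared, the median was 0.01 and 48.4% were below 0. Of 20 Nrf2 targets, 19 were below 0 and 1, *Cbr3*, was above, with a median of −0.15. None was past 1.5-fold. *Osgin1* was the lowest at −0.43, and *Hmox1*, heme oxygenase 1, had a signal of 42152 with MG132 and 43209 with epoxomicin (−0.17). The brightest, *Ftl1* and *Fth1* (−0.18 and −0.17), were among the genes of 100000 or more, which had a median of −0.09. Of 22 genes of endoplasmic reticulum chaperones and the unfolded protein response, 16 were below 0, with a median of −0.11. *Hspa5*, the chief chaperone of that compartment, differed by −0.20, and *Dnajb9*, its cochaperone, was the highest at 0.46. Of 25 integrated stress response genes, 16 were below 0, with a median of −0.05, and they went both ways. *Chac1*, which breaks down glutathione, differed by 0.57, and *Phgdh* of serine synthesis by 0.59. *Ddit4*, an inhibitor of mTORC1, differed by −0.56 (90998 and 71349), and *Ddit3*, which encodes CHOP, by −0.40. *Atf4* differed by −0.04. Without any scaling between arrays, the medians of these 3 lists were above 0.

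The genes of the proteasome, the target of both compounds, were at nearly equal levels. Of 42 constitutive proteasome genes, 29 were below 0 (48.4% over all genes), none was past 1.5-fold, and the median was −0.03. *Psmb5*, the β5 subunit, had a signal of 119609 with MG132 and 130436 with epoxomicin (−0.08). The immunoproteasome subunits *Psmb8*, *Psmb9* and *Psmb10* differed by 0.04, 0.02 and −0.07. *Nfe2l1*, the transcription factor of the proteasome genes, was the lowest of the list at −0.39 (934 and 823). Ubiquitin and p97 cofactor genes had a median of −0.07, with *Zfand2a* highest at 0.35. Some cathepsins are among the proteases that MG132 is known to inhibit. Genes for cathepsins, other peptidases and the inhibitory cystatins were 10 above and 10 below 0, with a median of 0.00 and none past 1.5-fold. *Ctsb* differed by −0.10, *Ctsl* by 0.08 and *Ctss* by 0.13. Of 11 calpain genes, 7 were below 0, with a median of −0.07, and *Capn1* was the lowest measured at −0.48. Lysosome genes, with targets of the transcription factor TFEB, were 14 above and 14 below. Genes that metabolize aldehydes and epoxides were 10 above and 9 below. Among them *Aldh1a2* was past 1.5-fold, at −0.81, but faint (36.6 with MG132 and 24.0 with epoxomicin), and *Ephx1*, an epoxide hydrolase, differed by 0.07. Without scaling, the proteasome, ubiquitin, calpain and lysosome medians were above 0, and those of the cathepsin, lysosome and aldehyde lists changed sign under other settings too.

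Of the other lists, S phase and mitosis genes were above 0 in 19 of 20 (51.6% over all genes), with a median of 0.18. *Cdc6*, which licenses replication origins, had a signal of 1336 with MG132 and 2333 with epoxomicin (0.60), beside 1606 with DMSO and 1377 with ONX0914. Its other probe gave 0.48. Cholesterol genes had a median of 0.09, with *Abca1* at 0.46, *Hmgcs1* at 0.44 and *Fdps*, farnesyl diphosphate synthase, apart at −0.68 (43838 and 31613). Of 10 genes of the BCL2 family, 7 were below 0 (48.4% over all genes), with a median of −0.14. *Bcl2l11* was the highest, and *Bak1*, an effector of apoptosis, had 15855 and 12503 (−0.55). Targets of p53 had a median of 0.01. *Btg2* differed by 0.63 and *Plk2* by 0.47, while *Cdkn1a*, the p21 gene, differed by 0.11 ± 0.02 (SD over 10 spots). Subunits and feedback genes of NF-kB had a median of −0.07, with *Nfkbia*, its inhibitor, lowest at −0.49. Metallothionein and metal transporter genes had a median of −0.05. The 12 reference genes ranged from −0.19 for *Gapdh* to 0.10 for *Tfrc*, with a median of −0.07. Macrophage markers had a median of −0.21, with *Spi1*, the PU.1 gene, at −0.46. The p53 median was below 0 with *Hprt* as the only scaling, the reference median above 0 with quantile normalization, and the BCL2, NF-kB, metallothionein and reference medians above 0 without scaling.

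**Figure D4:**
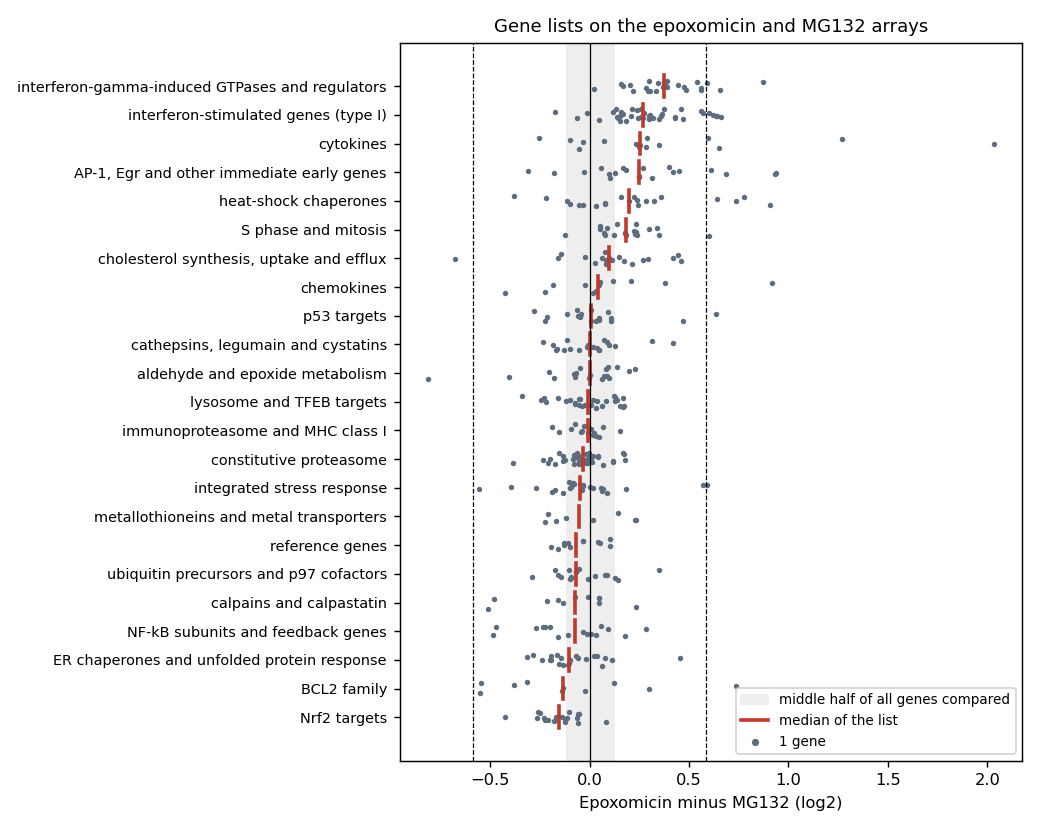
Difference between epoxomicin and MG132 (log2, x axis) of the genes on 23 lists, with 1 point per gene, the median of each list in red, the quartiles of all genes compared (−0.11 to 0.12) in gray, and dashed lines at 1.5-fold. The interferon, cytokine, immediate early, heat-shock and S phase lists have medians to the right of the gray band, and the Nrf2 and BCL2 lists have medians to its left.

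Most of the largest measured differences above 0 belonged to faint genes. *Spink2*, an inhibitor of serine proteases, had a signal of 5.09 with DMSO and 4.49 with ONX0914, neither well above background, 412 with MG132 and 1993 with epoxomicin. The difference of 2.07 (4.20-fold) was the highest of all genes measured on both arrays. *Nts*, the precursor of the peptide neurotensin, followed the same order, at 24.2 with DMSO, 15.2 with ONX0914 (not well above background), 190 with MG132 and 773 with epoxomicin (1.82). Another core histone gene of the H2B family, *H2bc22*, was low on 3 arrays, at 27.9, 24.4 and 26.2 with DMSO, MG132 and ONX0914, and had 111 with epoxomicin (1.98). *Lce1d*, *Ecscr*, *Gm614*, *Gm2022*, *Gpx2*, *Olfr1318* and *Mup4* had differences between 1.55 and 1.74, and MG132 signals between 22.1 and 62.9. With normexp, the faint genes came much closer to 0, with *H2bc22* at 0.66, *Lce1d* at 0.84 and *Olfr1318* at 0.29, while *Spink2* stood at 1.85. For *Gm614* the other probe gave −0.94. Of these 10 genes, 6 had MG132 as the second highest array, beside 2187 of all 7177 bright genes measured on the 4 arrays.

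At the other end, *Tatdn2*, a TatD-type nuclease, had a signal of 1120 with MG132 and 226 with epoxomicin (−2.52), beside 796 with DMSO and 237 with ONX0914. *Prrc2a*, an RNA-binding protein, had 2806, 643, 3497 and 1707 in the same order (−2.33). *Slc46a2*, a solute carrier, was high with MG132 alone, at 302, with 64.0 with epoxomicin, 45.8 with DMSO and 27.5 with ONX0914 (−2.44). *Nkx2-3*, a homeobox gene, had the same pattern at lower signals, with 101 with MG132 and between 23.6 and 26.7 on the remaining arrays (−2.29). So had *Fthl17f*, a ferritin-like gene (115 with MG132 and 37.1 with epoxomicin, −1.84). *Ppme1*, the methylesterase of protein phosphatase 2A, had 1127 with MG132 and 378 with epoxomicin (−1.78). *Zfyve1*, an autophagy-related protein of the endoplasmic reticulum (187 and 60.0, −1.85), and *Smco4* (2179 and 802, −1.65) complete the 10 genes with *Vapb* and *Pigt*. In 6 of the 10, MG132 had the highest scaled signal of all arrays. Among all 7177 bright genes measured on the 4 arrays, MG132 was the highest in 1112. The choice of these 10 genes favors a high MG132 array.

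The largest bounds each rest on a signal from a single spot. Defensin gene *Defb20* had a signal of 150 with MG132 and 4.10 with epoxomicin, at least 8.51-fold lower. *Vmn1r211*, *Olfr1335*, *Klra7* and *Tmprss11d* had signals between 80.7 and 99.0 with MG132 and were not well above background on the other 3 arrays. They were at least 4.57-fold to at least 5.61-fold lower with epoxomicin. In the other direction, *Vmn1r74*, *Pappa2*, *Olfr1394*, *Sirpb1a* and *Siglecf* had signals between 94.3 and 131 with epoxomicin. They were at least 4.59-fold to at least 6.38-fold higher. Of these 5, *Olfr1394* was well above background on the DMSO and ONX0914 arrays as well (16.3 and 77.9). The folds of these 10 bounds were lower with normexp, where *Defb20* came to −1.82, *Tmprss11d* to −0.91, *Vmn1r74* to 0.99 and *Siglecf* to 0.64 on the log2 scale. These genes encode vomeronasal and odorant receptors, a natural killer receptor and secreted or surface proteins of other kinds.

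Probes printed 10 times allow a difference to be set beside the reading error, which was wide for some faint probes. The SD of the difference between spots had a 95th percentile of 0.33 under a signal of 200 and of 0.05 at 1000 or more. *Lmnb1*, lamin B1 of the nuclear envelope, differed by −0.95 ± 0.04 (SD over 10 spots), with every spot between −1.01 and −0.86. Its signal was 3614 with MG132 and 2163 with epoxomicin, beside 7374 with DMSO and 3078 with ONX0914. *Prpf19*, a ubiquitin ligase of the spliceosome, differed by −0.78 ± 0.03 (SD over 10 spots). *Acod1*, which makes itaconate in activated macrophages, differed by −0.49 ± 0.04 (SD over 10 spots). *Csf1* differed by 0.23 ± 0.02 and *Hprt*, a reference gene, by 0.04 ± 0.02 (SDs over 10 spots). *Ptgs2*, the gene of cyclooxygenase 2, differed by 0.01 ± 0.03 (SD over 8 spots kept on both arrays). *Speer6-ps1*, a pseudogene, differed by 1.04 ± 0.10 (SD over 9 spots). *Lmnb1*, *Prpf19*, *Acod1*, *Csf1*, *Ptgs2* and *Speer6-ps1* were chosen after their values were seen, as were *Ass1*, *Copg2* and *Gsk3b*.

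Epithelial markers were higher with epoxomicin in part. *Krt8* and *Krt18* encode the keratin pair of simple epithelia, which stressed cells of other kinds can also express. *Krt8* had a signal of 37.8 with MG132 and 121 with epoxomicin (1.47) and was not well above background on the other arrays. *Krt18* was well above background on the epoxomicin array only (33.7), at least 1.64-fold higher. The other markers did not follow. *Epcam* and *Cdh1* were not well above background, and *Krt5* had 148 and 161. The summed signal of the 5 markers was 212 with MG132 and 331 with epoxomicin, beside 143 with DMSO and 151 with ONX0914. Its part in the other differences was not tested.

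Promoter letters were also searched in the named genes. Of the genes with the largest differences, measured or bright, 14 higher and 17 lower ones had a promoter entry. The interferon-stimulated response element was in 1 of the 14, *Mmp13*, and in none of the 17. The gamma-activated site TTCNNNGAA, present in 9.55% of all genes, was in 1 of each, *Fbxo17* and *Sympk*. The antioxidant response element TGACNNNGC, present in 14.0% of all genes, was in 2 of the 14 and 4 of the 17. It was in 7 of 17 Nrf2 targets. The heat-shock element was in *Bag3* and *Olfr1318* of the 14 and in none of the 17. The amino acid response element TGATGNAA (4.51% of all genes) was in *Nts* alone, and the E box CACGTG (8.09%) in *Tatdn2* alone. The CLEAR element (0.370%), which contains the E box, was in none of them.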

How the data were processed

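RNA of J774 cells was measured on 4 arrays in 1 color (Cy3). The scanner files that the authors deposited were written by Feature Extraction 10.7.1.1. They hold raw and background-subtracted intensity per spot and the software's 0 or 1 calls per spot (other values, deposited as flags). Per the file headers, the genome build was mm9, and its coordinates were not used. The authors also deposited log2 values made with GeneSpring, in a table of 39483 entries. Differences between both arrays in that table and in the processed intensity had a Pearson correlation of 1.00 and a slope of 1.00 over 23097 probes, and the table served as an alternative.

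Control spots and outlier spots (159 with MG132 and 174 with epoxomicin) were left out, the log2 of the processed intensity was taken, each array's 75th percentile was removed, and values of the 399 probes printed 10 times were averaged. Of 39429 probes, 26581 (67.4%) were named through their accession in RefSeq (mouse, GRCm38.p6), and the brightest probe stood for a gene with several. A signal not well above background was replaced by the higher of its own value and the lowest signal well above background on that array (17.8 with MG132, 20.3 with epoxomicin). The number of arrays limits the precision, and no test was possible. *Cxcl11* had no named probe and was not analysed here. Some genes are not reported here.

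The arrays compared, the gene lists, the motifs and the rule for named genes were chosen with earlier results of these data known. The rule takes the 10 largest and 10 smallest differences among genes measured on both arrays and among those with a signal of at least 1000, the 5 largest bounds each way, the chemokine, cytokine and proteasome genes of the study, members of a list past 1.5-fold or its brightest, and the 3 largest differences each way of unnamed probes. Other genes, such as the ends of a list or genes of known role, were named after their values were seen. Alternatives were 2 forms of normexp (offset 50, on median pixel intensity), quantile normalization and other scalings. The latter were the shift to the median, the percentile over detected probes, *Hprt* as the only scaling, and no scaling. The value table, the mean over probes, the signal in place of bounds, and other detection calls and filters were also used. A difference counted as moved from 0.0801 on, the spread between spots times the square root of 2. The calculations were tested on simulated data. Calculations ran in R 4.3.3 (limma 3.58.1) and in Python 3.11.15 (numpy 2.4.6, pandas 2.3.3, matplotlib 3.10.9).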

Additional observations from a re-analysis of the deposited data

How the results depend on the processing

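Background correction, scaling and filters decided the counts, and the direction of the named genes did not depend on them apart from a few near 0. With normexp, 7 genes were at least 2-fold higher and 22 lower, and with outlier spots left out of its fit 7 and 23. At 1.5-fold, normexp gave 85 higher and 116 lower, or 76 and 121 without outlier spots. Of the genes past 2-fold as reported, 6 of the higher and 21 of the lower ones were also past it with normexp. With the signal of at least 200 on both arrays, 6 were higher and 18 lower at 2-fold, and 71 and 64 at 1.5-fold. With genes well above background on both arrays, the counts were 43 and 41, and 200 and 158. No filter and the software's other detection call both gave 409 higher and 419 lower at 2-fold, and 890 and 805 at 1.5-fold. The signal itself in place of bounds gave 195 and 171 at 2-fold, and the authors' log2 values 194 and 171. Without scaling, the median over all genes was 0.20 higher, and 172 genes were higher at 2-fold, 725 higher at 1.5-fold and 147 lower at 1.5-fold. The share of higher genes among those past 2-fold was 53.6% as reported, 24.1% and 23.3% with the 2 forms of normexp, 25% with the filter of 200, and 72.0% without scaling. Quantile normalization, the shift to the median, the percentile over detected probes, *Hprt* as the only scaling and the mean over probes kept every count within 1.5 times.

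Of 63 named genes, 31 moved with normexp, 32 with its other form, 11 with the value table, 3 with the mean over probes (*Vapb* to −1.41), and all without scaling. *Psmb5* and *Psmb10* changed sign without scaling and *Psmb9* with *Hprt*. The medians of the integrated stress response, Nrf2, endoplasmic reticulum, constitutive proteasome, NF-kB, calpain, metallothionein and BCL2 lists were above 0 without scaling only, and those of the ubiquitin, p53, cathepsin, lysosome, aldehyde, immunoproteasome and reference lists changed sign under other settings as well. The medians of the interferon, cytokine, heat-shock, immediate early, cholesterol, S phase and chemokine lists were above 0 under all 9 alternatives. No paired analysis was possible because each condition had 1 array. Signals near the background limit faint genes most, and the cause of the moves was not tested.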

Other observations

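Histone genes, looked at after *H2bc4* and *H2bc22* had been seen among the named genes, went both ways. Of 53 compared, 21 were above 0 and 32 below (51.6% and 48.4% over all genes), with a median of −0.12. At least 2-fold higher with epoxomicin were 3, namely *H2bc22*, *H2bc4* and *H2ac6* (60.1 with MG132 and 161 with epoxomicin, 1.21), and none was 2-fold lower. Over all genes, 0.814% were at least 2-fold higher and 0.704% lower. At 1.5-fold, 7 histone genes were higher and 3 lower, beside 2.42% and 1.97% over all genes. *H2ax*, the variant phosphorylated at DNA breaks, had a signal of 3184 with MG132 and 5553 with epoxomicin (0.60). The linker histone genes *H1f4* (9085 and 6181, −0.76) and *H1f1* (1462 and 1074, −0.65) were lower. Of the brightest, *H2ac12* and *H2ac20* differed by −0.21 and −0.25. They were among the genes of 100000 or more, which had a median of −0.09 and were above 0 in 22.2%. Probes of histone genes can bind near-identical transcripts.

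Among 6094 probes without a gene symbol that were well above background on both arrays, 27 were past 2-fold above MG132 and 31 past 2-fold below. Of the 13043 named genes measured on both arrays, 43 (0.33%) were at least 2-fold higher and 41 (0.314%) lower. The 3 largest differences were 2.09, 1.72 and 1.71, and the 3 smallest were −2.06, −1.67 and −1.67. Only 1 of these 6 probes had a signal above 120 on either array, with 518 with MG132, 1955 with epoxomicin, 263 with DMSO and 182 with ONX0914.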
